A study of Danio rerio with 12 samples.

Results

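Long intergenic noncoding RNAs (lincRNAs) are transcripts that lie between protein-coding genes and have no recognised protein product. The 55 genes described here are the lincRNA rows with at least 100 counts in every one of 12 zebrafish RNA-seq libraries. They were taken from 882 rows of that type among 31540 genes. Those counts chose the members, so their abundance is a description and not a result. Of the 882 rows, 161 had no count in any library and 272 had enough counts to be tested.

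Each library came from a pool of 10 wild-type zebrafish larvae frozen whole at 5 days post fertilization, the eleutheroembryo stage, in which the larva still lives largely on yolk. The larvae were exposed from day 2 to day 5 through their water to bisphenol A (BPA), a plastics monomer with oestrogen-like activity, at 0.1, 1 or 4 mg/L, or to no BPA, and the water of all 4 groups held 0.2% DMSO. Each group had 3 libraries, numbered 1 to 3 in the labels. The labels do not say whether the pools of a group came from separate clutches or dishes, so p-values measure only the spread between these libraries. In RNA from whole larvae, fewer cells of a type and less RNA per cell cannot be told apart.

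The best known lincRNA of the set is malat1, which in mammalian cells is kept in the nucleus at nuclear speckles, the stores of splicing factors. Its mammalian counterpart is cut at its end by the enzyme that trims tRNAs and carries no poly-A tail in its mature form, while these libraries were made from poly-A RNA. A second, si:dkey-71p21.9, carries the name oip5-as1 in the reference gene names used here and is also known as cyrano, a vertebrate lincRNA with a conserved site for the microRNA miR-7. Most others are known by clone names and have no established function. As a class lincRNAs are usually less abundant and more restricted to particular tissues than messenger RNAs.

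Some members carried a name that a later annotation gives to a protein-coding gene. The reference name table listed 49 of the 55 identifiers, and 21 could be matched by name, not by position, to a single RefSeq gene. A lincRNA row and a coding gene of the same name may still be separate transcripts. RefSeq classed 13 of the 21 as long noncoding RNA, 1 as another noncoding RNA and 7 as protein-coding. The 7 were mast4, a microtubule-associated kinase, tob2, a member of the antiproliferative Tob family, mhc1zaa, a class I histocompatibility gene named mhc1zda in that table, si:ch211-220p4.1, named znf469 there, si:ch73-144l3.2, si:ch211-142k18.1 and si:rp71-1c10.7. For 3 members, itfg1, cab39 and mhc1zaa, another row with the same symbol was annotated as protein-coding. How reads shared by such overlapping or paired rows were assigned is not given in the sources used here.

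Just inside the threshold, the lowest library of si:ch211-59d2.2 held 102 counts, that of si:ch211-229g11.6 held 103 and that of si:dkey-33c14.2 held 109. Just outside it lay si:dkey-187a12.4 at 98 counts, si:ch73-302a4.4 at 97 and si:dkey-48g21.7 at 93. A further view of the threshold is given by 22 lincRNA rows whose mean reached 100 counts but whose lowest library did not. In 14 of these 22, and in 34 of the 55 members, the lowest count was in a library numbered 3.

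The 12 libraries held between 21952242 and 34219276 counts, and the shallowest were control 3, with 21952242, and 1 mg/L replicate 3, with 22168657. The libraries numbered 3 stood apart from the rest. All 11 tested rows for 10 proliferating-cell markers, such as mki67 and mcm6, were called between replicate numbers and lay below number 1 in number 3, with a median log2 difference of -0.86. Markers of skin, muscle, liver, gut, pancreas, red cells, photoreceptors, neurons and lens were all detected.

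A handful of genes made up nearly all of the lincRNA signal. The 55 members together took between 1.32% and 2.04% of a library's counts and between 97.9% and 98.5% of the counts of all lincRNA rows. One gene, si:dkey-153m14.1 (ENSDARG00000096403), a clone-named lincRNA of no known role, took between 0.885% and 1.38% of all counts and ranked between 4 and 10 among all genes of a library. malat1 (ENSDARG00000099970) took between 0.171% and 0.706% and ranked between 14 and 63. The other 53 members together took between 0.119% and 0.165%. Gene lengths were not used here, so these are shares of reads and not of molecules.

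**Figure D1:**
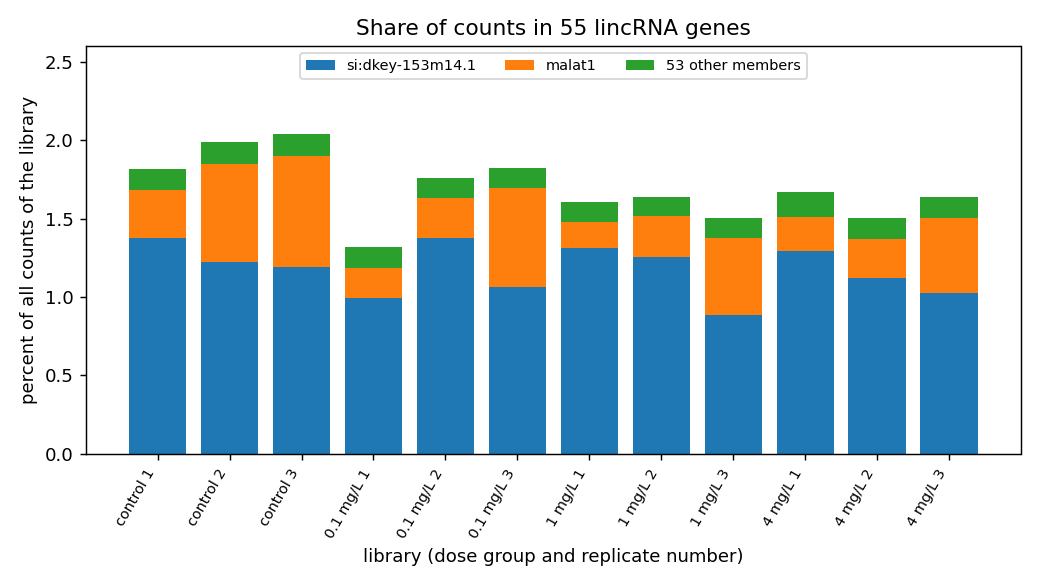
Stacked bars give the percent of each library's counts taken by si:dkey-153m14.1, by malat1 and by the other 53 lincRNA genes, for the 12 libraries in order of dose group. The malat1 segment is tallest in the libraries numbered 3 and in control 2, and the segment of the other 53 stays between 0.119% and 0.165%.

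In CPM, counts scaled to an equal library size, the mean of si:dkey-153m14.1 over the 12 libraries was 11746 CPM and that of malat1 was 3939 CPM. The next was si:dkey-71p21.9, the cyrano gene, at 205 CPM, followed by si:dkey-33c14.3 at 198 CPM and si:ch211-285j16.4 at 95.0 CPM. The remaining 5 of the 10 highest, si:dkey-100n23.4, si:ch211-265g21.1, si:dkey-22o12.7, si:ch211-213i16.3 and si:ch73-264i18.3, lay between 38.4 and 51.7 CPM. The median member had 13.4 CPM and the lowest 4.49 CPM. Most members lay near the lower end of this range.

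Members varied more within a dose group than protein-coding genes that pass the same count threshold. The median coefficient of variation (CV, the pooled SD within groups as a percent of the mean) was 18.9% for the 55 members. It was 17.1% for all 22399 tested genes, 13.3% for the 13153 protein-coding genes and 18.9% for 7 antisense genes at that threshold. The protein-coding genes were also more abundant, with a median of 18.9 CPM beside 13.4 CPM for the members. This is a description, without a test. The most variable members were si:ch211-213i16.3, with a CV of 71.9%, malat1, with 58.4%, and si:dkey-33c14.3, with 37.1%. The steadiest were si:dkey-22o12.7, with 5.55%, si:ch73-252i11.3, with 7.97%, and itfg1, with 8.89%.

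**Figure D2:**
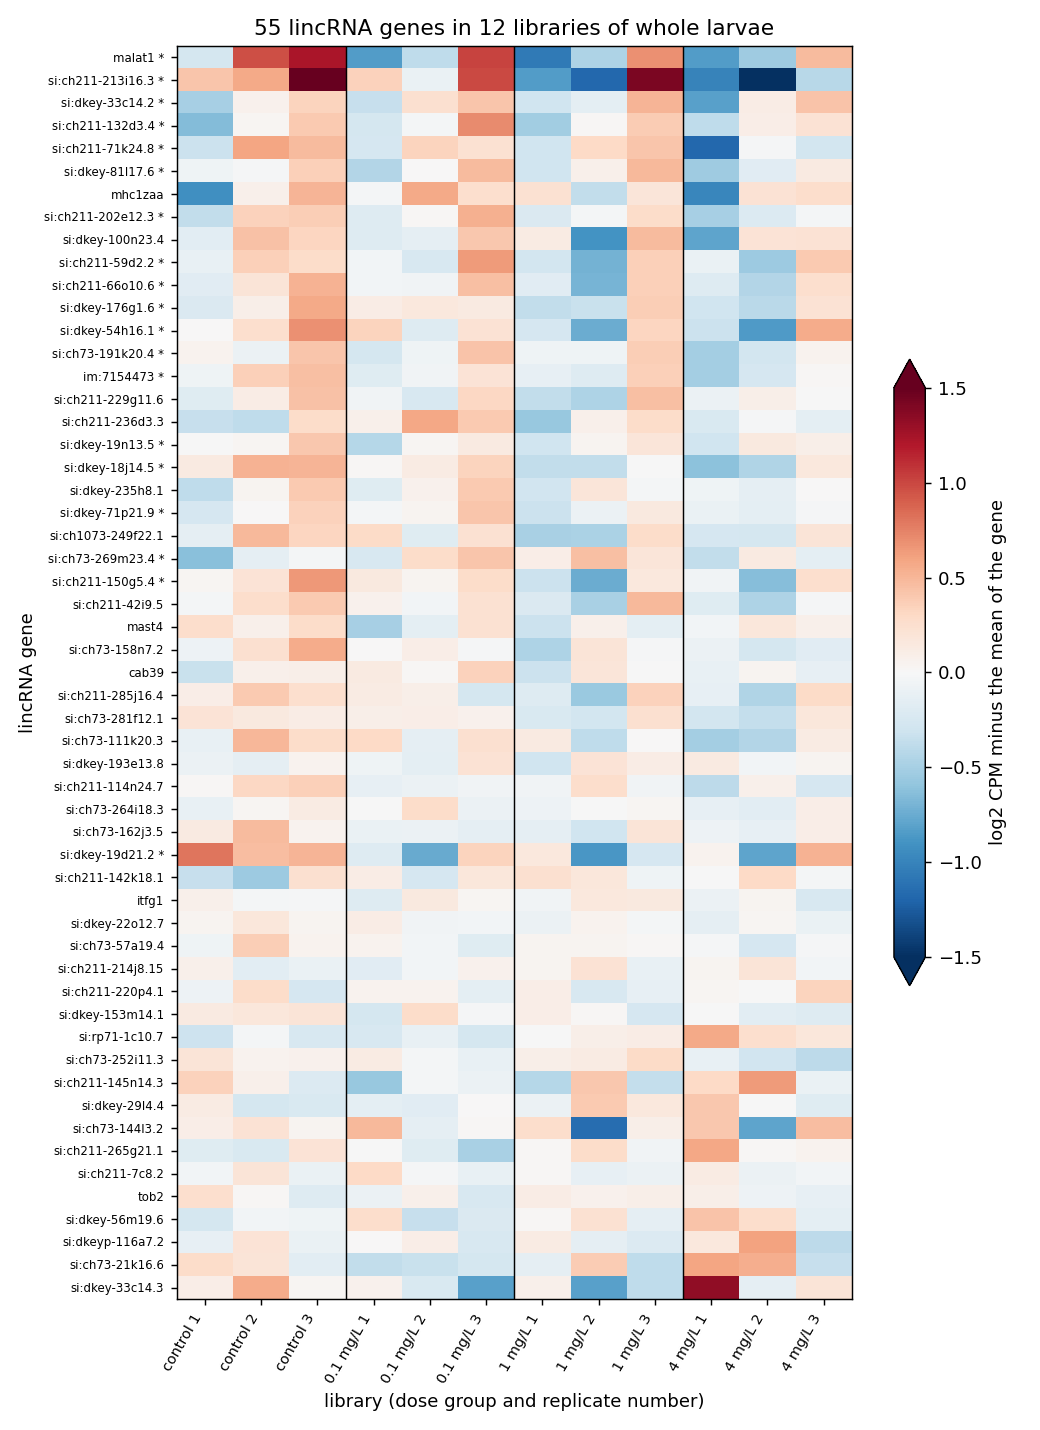
Each row is 1 of the 55 lincRNA genes and each column 1 library, grouped by dose; colour is log2 CPM minus the mean of the gene, cut off at 1.5 on either side. Rows are ordered by the log2 fold of number 3 against number 1, a star marks the 19 genes called among replicate numbers, and the upper rows are redder in the third column of each dose group than in the first.

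The first question is whether BPA at the highest dose changed these lincRNAs. In one edgeR quasi-likelihood fit over all 12 libraries and 22399 genes, a gene was called when its Benjamini-Hochberg adjusted p over all tested genes was under 0.05. At 4 mg/L against control, 0 of the 55 members were called, beside 0.281% of all tested genes, and 9 members had an unadjusted p under 0.05, beside 12.4% of all tested genes. DESeq2 called 1 member, beside 487 of all tested genes, and limma-voom called 0 members. With the replicate number as a block edgeR called 6 members, beside 1094 of all tested genes. The pairing of control and dose libraries that the block assumes is not established. The median log2 fold change of the members was -0.15, beside -0.003 for all tested genes. Of the members 39 of 55 lay below 0, or 70.9%, beside 50.4% of all tested genes and 68.4% of the 272 tested lincRNA rows. The standard error of a member's log2 fold change had a median of 0.209 and ran from 0.0997 to 0.716. Small shifts of the noisier members were thus not detectable with 3 libraries a group. Larger shifts went uncalled as well: the members ran from -2.34 to 0.53, with a lowest edgeR adjusted p of 0.139.

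The member with the smallest p at 4 mg/L was si:rp71-1c10.7 (ENSDARG00000096717), 1 of the 7 matched by name to a RefSeq protein-coding gene. Its counts were 207, 211 and 124 in control, 190, 232 and 163 at 0.1 mg/L, 263, 255 and 162 at 1 mg/L, and 397, 279 and 252 at 4 mg/L. As scaled values these were 6.56 ± 0.672 CPM in control, 6.51 ± 0.374 at 0.1 mg/L, 7.82 ± 0.333 at 1 mg/L and 9.48 ± 1.43 at 4 mg/L (SD, n = 3). All 3 libraries at 4 mg/L, and all 3 at 1 mg/L, lay above the 3 controls, while 0.1 mg/L overlapped them. The log2 fold change at 4 mg/L was 0.53 (SE 0.136, edgeR adjusted p = 0.139), a fold of 1.45, and it missed the threshold. DESeq2 gave this gene an adjusted p of 0.0339. Over its alternatives the adjusted p ran from 0.0339 to 0.524.

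The second was si:dkey-18j14.5 (ENSDARG00000096527), a clone-named lincRNA. Its counts were 1041, 1147 and 769 in control, 839, 1009 and 910 at 0.1 mg/L, 753, 691 and 549 at 1 mg/L, and 645, 634 and 919 at 4 mg/L. Its CPM was 36.5 ± 5.30 in control, 31.0 ± 3.48 at 0.1 mg/L, 23.4 ± 3.49 at 1 mg/L and 23.0 ± 6.80 at 4 mg/L (SD, n = 3). The 3 libraries at 1 mg/L lay below all controls, while at 4 mg/L replicate 3, at 30.8 CPM, overlapped the lowest control, at 30.4 CPM. The log2 fold change was -0.66 at 4 mg/L (SE 0.195, edgeR adjusted p = 0.200) and -0.64 at 1 mg/L (SE 0.195, adjusted p = 0.302). Without 4 mg/L replicate 3 the log2 fold change at 4 mg/L was -0.91, with an adjusted p of 0.0472, and it was called. With the replicate number as a block it was called at 4 mg/L (adjusted p = 0.0125) and at 1 mg/L (adjusted p = 0.0293), and over all alternatives the adjusted p at 4 mg/L ran from 0.0125 to 0.589.

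The widest difference at 4 mg/L was in si:ch211-213i16.3 (ENSDARG00000094104), which RefSeq also lists as long noncoding. Its counts were 1353, 1263 and 2604 in control, 1122, 920 and 1528 at 0.1 mg/L, 582, 421 and 1580 at 1 mg/L, and 528, 180 and 660 at 4 mg/L. Its CPM was 72.1 ± 52.8 in control, 41.2 ± 15.8 at 0.1 mg/L, 36.2 ± 37.1 at 1 mg/L and 14.2 ± 8.20 at 4 mg/L (SD, n = 3). The libraries at 4 mg/L lay below all controls, and the library numbered 3 was the highest in each of the 4 groups. The log2 fold change was -2.34 (SE 0.716, edgeR adjusted p = 0.214), with a range over alternatives from -2.78 to -1.55 and of adjusted p from 0.00718, with the replicate number as a block, to 0.566.

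malat1 had 97156, 191804 and 155033 counts in control, 56861, 87036 and 178206 at 0.1 mg/L, 57618, 79508 and 109231 at 1 mg/L, and 67806, 73433 and 141088 at 4 mg/L. Its CPM was 5802 ± 2647 in control, 3778 ± 2665 at 0.1 mg/L, 3188 ± 2012 at 1 mg/L and 2988 ± 1520 at 4 mg/L (SD, n = 3). The groups overlapped at every dose: control 1, at 2834 CPM, lay far below the other two controls and inside the range of each dose, and 0.1 mg/L replicate 3, at 6829 CPM, lay above control 2, at 6654 CPM. The log2 fold change at 4 mg/L was -0.96 (SE 0.575, edgeR adjusted p = 0.511). Over the alternatives that adjusted p ran from 0.0236, with the replicate number as a block, to 0.856.

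The most abundant member, si:dkey-153m14.1, had 13058 ± 287 CPM in control, 11769 ± 2202 at 0.1 mg/L, 11387 ± 1415 at 1 mg/L and 10770 ± 776 at 4 mg/L (SD, n = 3). Its 3 libraries at 1 mg/L and at 4 mg/L all lay below the 3 controls, but the log2 fold change at 4 mg/L was -0.28 (SE 0.212, edgeR adjusted p = 0.601). The cyrano gene si:dkey-71p21.9 had 211 ± 43.8 CPM in control and 191 ± 9.17 at 4 mg/L, and the groups overlapped (log2 fold change -0.14, SE 0.181). In si:dkey-33c14.3 a single library stood out, 4 mg/L replicate 1 with 16423 counts, while the other two of that group had 5213 and 6221 and control had 6714, 7743 and 3649.

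**Figure D3:**
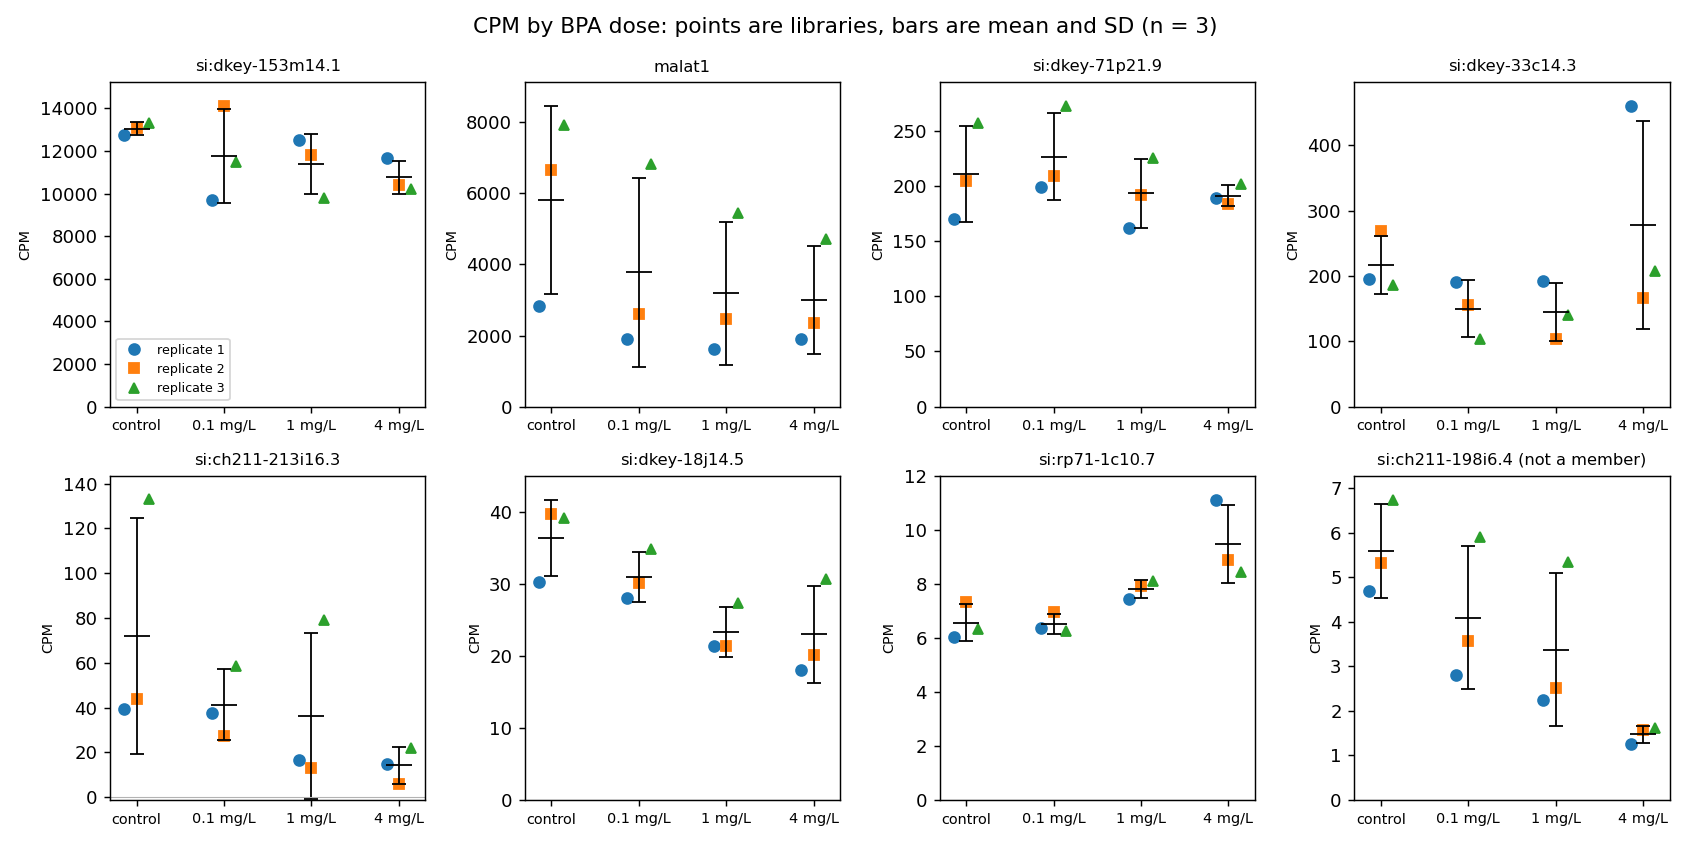
CPM of 7 lincRNA members and of si:ch211-198i6.4, which is not a member, against BPA dose; points are libraries, with shape and colour by replicate number, and the bars are the mean and SD (n = 3). si:rp71-1c10.7 is highest at 4 mg/L, si:ch211-198i6.4 lowest there, and malat1 is highest in number 3 in each of the 4 groups.

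At 4 mg/L, by complete separation from control in CPM, 1 member lay above all controls, si:rp71-1c10.7, beside 8.23% of all tested genes, and 5 lay below, beside 8.91%. The 5 were si:dkey-153m14.1, si:dkey-22o12.7, si:ch211-213i16.3, si:ch73-158n7.2 and si:ch73-252i11.3, named here because the group is small. The steadiness of si:ch73-252i11.3 shows in its values, 7.67 ± 0.403 CPM in control and 5.98 ± 0.603 at 4 mg/L (SD, n = 3), with a log2 fold change of -0.36 (SE 0.127, edgeR adjusted p = 0.269).

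**Figure D4:**
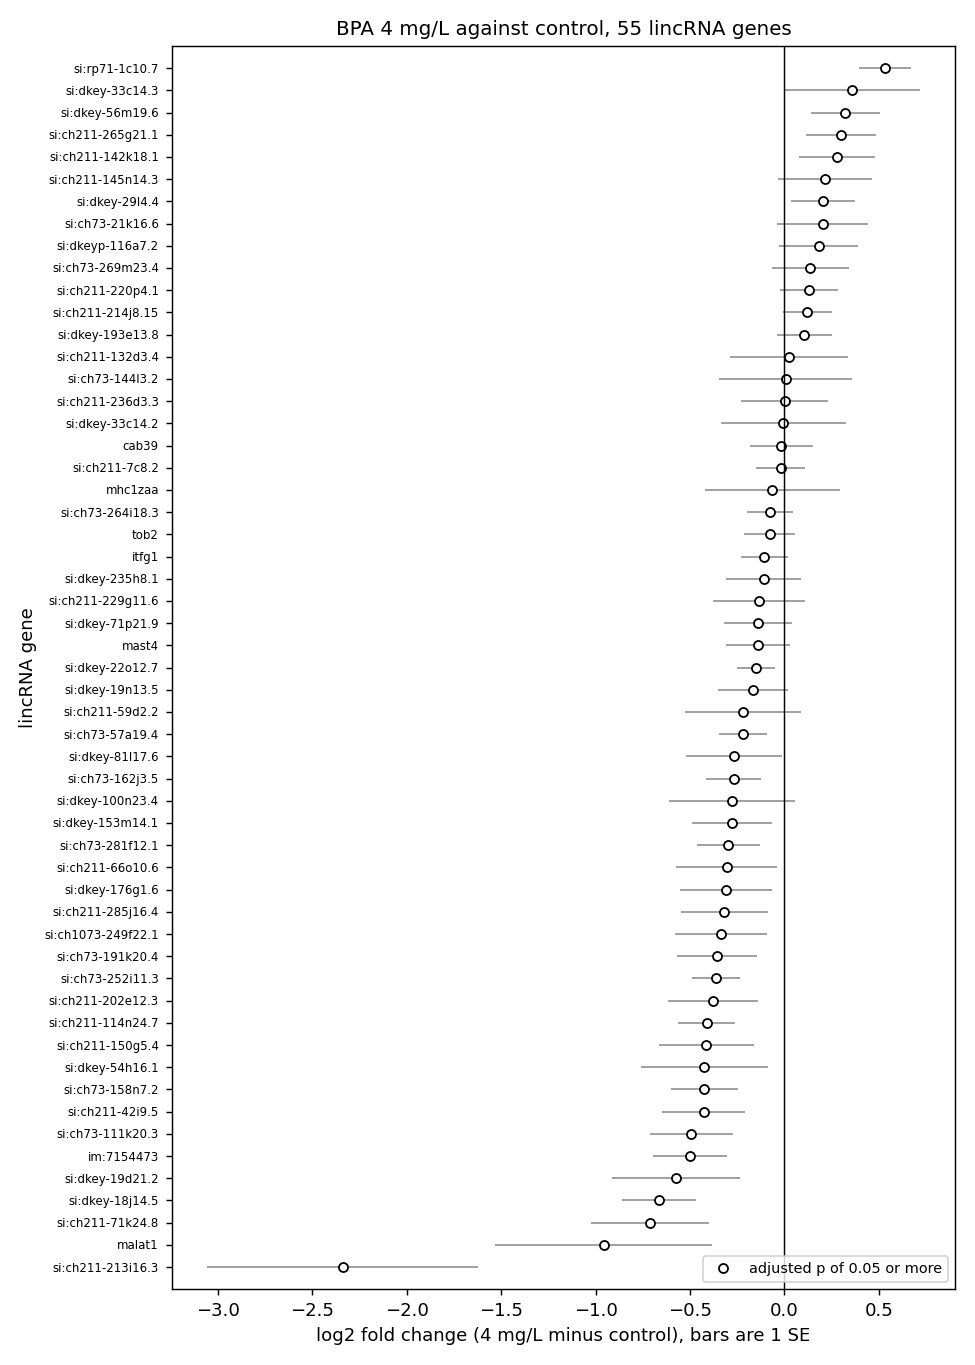
Log2 fold change at 4 mg/L against control for each of the 55 lincRNA genes, sorted, with bars of 1 SE on the horizontal axis. All 55 symbols are open, since no adjusted p was under 0.05, and 39 lie left of 0, from -2.34 for si:ch211-213i16.3 to 0.53 for si:rp71-1c10.7.

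At 1 mg/L 0 of 55 members were called by edgeR, beside 0.0670% of all tested genes, and DESeq2 and limma-voom also called 0. With the replicate block edgeR called 2 members, beside 299 of all tested genes. An unadjusted p under 0.05 was found for 4 members, beside 8.77% of all genes. The median log2 fold change was -0.13, beside -0.01 for all tested genes. Of the members 38 of 55 lay below 0, or 69.1%, beside 51.9% of all tested genes and 67.6% of the 272 lincRNA rows. After si:dkey-18j14.5, the smallest p belonged to si:dkey-19d21.2, with 487, 323 and 228 counts in control and 322, 143 and 137 at 1 mg/L. Its CPM was 12.4 ± 1.62 in control and 6.81 ± 2.34 at 1 mg/L, without overlap (log2 fold change -0.86, SE 0.342, edgeR adjusted p = 0.485). The third, si:ch73-269m23.4, lay the other way, at 12.4 ± 2.58 CPM in control and 17.4 ± 2.31 at 1 mg/L, again without overlap (log2 fold change 0.50, SE 0.204, adjusted p = 0.502). Separation from control was seen for 2 members above, beside 8.05% of all genes, and 3 below, beside 6.08%.

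At 0.1 mg/L edgeR called 0 of 55 members and 0% of all tested genes, and DESeq2 and limma-voom called 0 members. An unadjusted p under 0.05 was found for 2 members, beside 5.01% of all genes. These were si:ch73-162j3.5, at 18.0 ± 2.93 CPM in control and 14.2 ± 0.234 at 0.1 mg/L and si:dkey-19d21.2, at 12.4 ± 1.62 CPM in control and 7.44 ± 2.74 at 0.1 mg/L. Their log2 fold changes were -0.34 (SE 0.147, edgeR adjusted p = 0.986) and -0.74 (SE 0.340, adjusted p = 0.989). The next, si:ch211-236d3.3, had 7.09 ± 1.91 CPM in control and 9.91 ± 1.70 at 0.1 mg/L, with a log2 fold change of 0.49 (SE 0.229) and overlap between the groups. The median of the members was -0.08, beside -0.008 for all tested genes. Of the members 38 of 55 lay below 0, or 69.1%, beside 51.6% of all tested genes and 62.5% of the 272 lincRNA rows. By separation 0 members lay above all controls and 5 below all controls, beside 5.09% and 4.71% of all genes. The 3 doses share their control libraries, so the similar counts below 0 at each dose are not separate observations.

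Across all 4 groups at once, edgeR called 0 of 55 members, beside 0.0625% of all tested genes, and 4 had an unadjusted p under 0.05, beside 7.76%. DESeq2 called 1 member, si:rp71-1c10.7, beside 380 of all tested genes. With the replicate block edgeR called 3 members, beside 310 of all tested genes. For a linear trend over dose ranks 0 to 3, edgeR called 0 members, beside 0.348%, and 8 had an unadjusted p under 0.05, beside 13.2%. The smallest p values again belonged to si:rp71-1c10.7, with a log2 slope of 0.19 per rank (SE 0.0431, adjusted p = 0.0984), si:dkey-18j14.5, with -0.24 (SE 0.0616, adjusted p = 0.135), and si:ch211-213i16.3, with -0.72 (SE 0.224, adjusted p = 0.211). DESeq2 called 2 members for the trend, si:rp71-1c10.7 and si:dkey-18j14.5, beside 546 of all tested genes. With the replicate block edgeR called 6 members for the trend, beside 1248 of all tested genes. Leaving out 1 mg/L replicate 3 made edgeR call si:ch211-213i16.3 (adjusted p = 0.0477), and leaving out 4 mg/L replicate 3 made it call si:dkey-18j14.5 (adjusted p = 0.0298). Of the 55 slopes, 42 lay below 0, or 76.4%, with a median of -0.05. Below 0 lay 50.4% of the slopes of all tested genes and 70.6% of those of the 272 lincRNA rows.

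Among the 3 BPA doses alone, edgeR called 0 of 55 members, beside 0.00446% of all tested genes, 3 members had an unadjusted p under 0.05, beside 4.32%, and DESeq2 and limma-voom called 0. The 3 were si:rp71-1c10.7, si:ch73-252i11.3 and si:dkey-33c14.3, with a lowest adjusted p of 0.934. With the replicate number as a block, in a fit that also held the control libraries, edgeR still called 0.

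The rule leaves out one dose difference, since a lincRNA that falls under 100 counts in the treated libraries cannot be a member. Among the 272 tested lincRNA rows 1 was called at 4 mg/L, or 0.368%, beside 0.281% of all tested genes. For the trend over dose ranks the shares were 0.368% and 0.348%, so neither count stands apart from the table as a whole. The row was si:ch211-198i6.4 (ENSDARG00000105183), which is singled out here after its values were seen. Its counts were 161, 153 and 132 in control, 84, 119 and 154 at 0.1 mg/L, 79, 81 and 107 at 1 mg/L, and 45, 49 and 48 at 4 mg/L. Its CPM fell from 5.58 ± 1.05 in control to 1.48 ± 0.189 at 4 mg/L (SD, n = 3), a log2 fold change of -1.91 (SE 0.350, edgeR adjusted p = 0.0470), or 3.76-fold lower. All 3 libraries at 4 mg/L lay below every other library. The size held over 21 alternatives, from -2.02 to -1.76, but the call did not: the adjusted p was 4.02e-05 with DESeq2, 0.0543 with limma-voom, and 0.0584 with upper-quartile scaling. The call was kept without 0.1 mg/L replicate 3, 1 mg/L replicate 2 or 1 mg/L replicate 3, and was lost without any 1 of the other 9 libraries, each control and each 4 mg/L library included, with an adjusted p from 0.0503 to 0.217. The trend over dose ranks was also called, at a log2 slope of -0.60 (SE 0.110, adjusted p = 0.0443, up to 0.180 over the alternatives), and so was the difference among replicate numbers (adjusted p = 0.0194, number 3 above number 1 by 0.83 log2 units). A rule of a mean of at least 100 counts would have included it, and 1 lincRNA would then have been called at 4 mg/L and 1 for the trend.

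More members were called between replicate numbers than in any of the dose comparisons, but the models differed. The number test had 4 libraries a number and dose in the model, while the dose tests left the number out. The median standard error of the members was 0.130 between numbers 3 and 1 and 0.209 at 4 mg/L. With the number also in the dose model, 6 members were called at 4 mg/L. With dose group and number in the model, edgeR called 19 of 55 members, or 34.5%, beside 15.1% of all tested genes and 19.3% of the protein-coding genes with at least 100 counts in every library. DESeq2 called 21 members, beside 18.2% of all tested genes, and limma-voom 18, beside 15%. With edgeR 28 members had an unadjusted p under 0.05, beside 33.2% of all tested genes. All 19 lay higher in number 3 than in number 1, beside 8.11% of all tested genes that were called in that direction and 6.98% in the other; the table as a whole split into 1817 called genes higher and 1563 lower. The median log2 difference of the members between numbers 3 and 1 was 0.23, beside 0.01 for all tested genes, and that between numbers 2 and 1 was 0.06. Of the 7 antisense genes at that threshold 2, or 28.6%, were called, both higher in number 3. Their median difference between numbers 3 and 1, over all 7, was 0.22. In CPM 16 of 55 members lay higher in all 4 libraries numbered 3 than in any numbered 1, beside 9.96% of all genes, and 0 lay lower, beside 8.72%.

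malat1 was first by p among the 19. Its mean over the 4 dose groups was 2067 ± 526 CPM in number 1, 3517 ± 2094 in number 2 and 6233 ± 1422 in number 3 (SD, n = 4). Number 3 was the highest and number 1 the lowest library in every dose group, and numbers 3 and 1 did not overlap. With dose in the model the log2 difference between 3 and 1 was 1.60 (SE 0.175, edgeR adjusted p = 0.00193), a fold of 3.04, and over its alternatives with number 3 it ran from 1.46 to 1.71.

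The clone-named si:ch211-132d3.4 (ENSDARG00000101584) had 18.8 ± 2.22 CPM in number 1, 26.2 ± 1.02 in number 2 and 34.8 ± 5.18 in number 3 (SD, n = 4). Its log2 difference between 3 and 1 was 0.88 (SE 0.102, edgeR adjusted p = 0.00247), while its log2 fold change at 4 mg/L was 0.02 (SE 0.311). In si:ch211-71k24.8 both numbers 2 and 3, at 12.7 ± 2.15 and 12.0 ± 2.59 CPM, lay above number 1, at 7.35 ± 1.92 (adjusted p = 0.00286). The gene with the widest dose difference, si:ch211-213i16.3, had 27.1 ± 13.2 CPM in number 1, 22.5 ± 16.8 in number 2 and 73.2 ± 46.3 in number 3 (log2 difference 1.32, SE 0.276, adjusted p = 0.00498).

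The other 4 of the first 8 by p were si:dkey-81l17.6, si:dkey-33c14.2, si:ch73-191k20.4 and si:dkey-19n13.5, with log2 differences of 0.69, 0.90, 0.51 and 0.46 between numbers 3 and 1, all without overlap. The cyrano gene si:dkey-71p21.9 was called as well, at 180 ± 16.7 CPM in number 1, 197 ± 11.7 in number 2 and 239 ± 31.8 in number 3 (edgeR adjusted p = 0.0289), and did not overlap between 1 and 3. The test asks for any difference, and in si:dkey-19d21.2 that was number 2, at 6.30 ± 3.27 CPM beside 9.74 ± 3.08 in number 1 and 10.1 ± 2.28 in number 3. In all, 6 of the 19 lay lower in number 2 than in number 1, and 13 of the 19 did not overlap between 3 and 1.

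**Figure D5:**
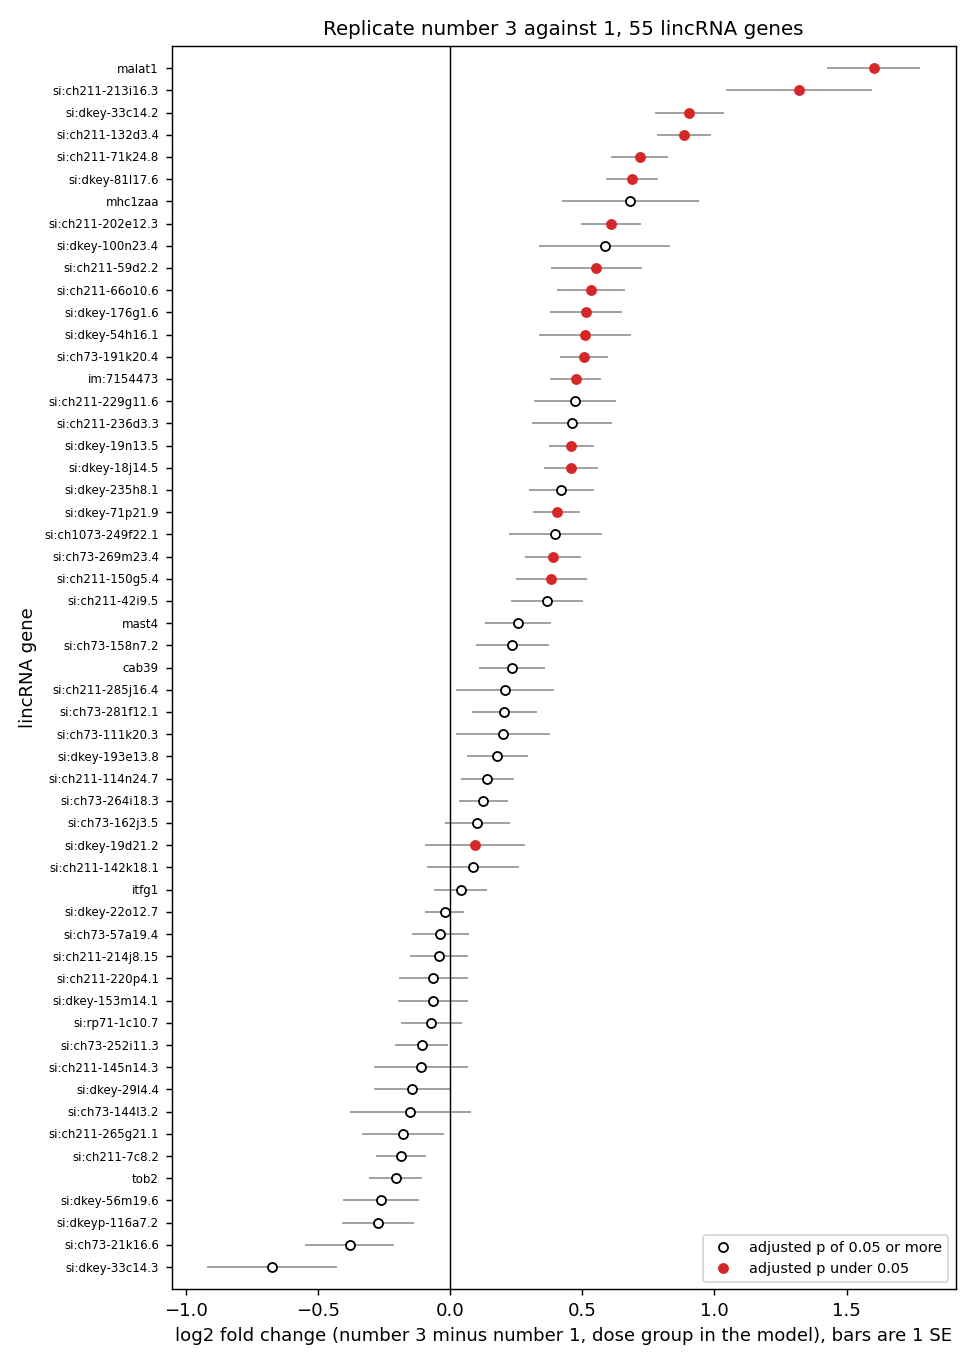
Log2 fold of number 3 against number 1, with dose group in the model, for each of the 55 lincRNA genes, sorted, with bars of 1 SE on the horizontal axis. Red symbols mark the 19 genes called for any difference among numbers; all lie right of 0, with malat1 at 1.60.

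The most abundant member was not among the 19. si:dkey-153m14.1 had 11667 ± 1380 CPM in number 1, 12357 ± 1590 in number 2 and 11214 ± 1584 in number 3 (SD, n = 4, edgeR adjusted p = 0.690). Nor were the members with protein-coding names: itfg1, mast4, tob2, mhc1zaa and cab39 had adjusted p between 0.169 and 0.513 among numbers. The widest of these, mhc1zaa, had 22.3 ± 9.32 CPM in number 1 and 34.7 ± 3.56 in number 3 and overlapped.

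Outside the members, 35 of the other 217 tested lincRNA rows were called among replicate numbers, or 16.1%, beside 15.1% of all tested genes, and all 35 lay higher in number 3. Of the 22 rows with a mean of at least 100 but a lowest library under 100, 5 were called, all higher in number 3. The number of members called depended on single libraries, as did the share of all tested genes. It ran from 9 without 1 mg/L replicate 3, where 6.31% of all tested genes were called, to 24 without control 2, where 24.5% were. It was 12 without control 3, beside 7.73% of all genes, and 11 without 0.1 mg/L replicate 1, beside 8.12%. It was 11 without 4 mg/L replicate 1, beside 7.78%, and 12 without 4 mg/L replicate 2, beside 10.8%. With the libraries numbered 1 and 2 only, edgeR called 0 members and 0 of all tested genes, and 13 members had an unadjusted p under 0.05, beside 15.8% of all genes.

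Beside these differences, the summed level of the 10 proliferating-cell markers ran from 755 to 1142 CPM in number 1, from 594 to 909 in number 2 and from 420 to 699 in number 3, with no marker at 0; its part in the lincRNA differences was not tested. The labels do not say what a number stands for, so no batch can be named. Of the 19 members, 4 also had an unadjusted p under 0.05 at 4 mg/L, beside 9 of all 55 members and 12.4% of all tested genes. The last share is not limited to genes called among numbers. They included si:ch211-213i16.3, si:dkey-18j14.5 and si:ch211-71k24.8. These were uncalled at 4 mg/L in the main fit and had edgeR adjusted p of 0.00718, 0.0125 and 0.0125 with the replicate block. Without a block, si:dkey-18j14.5 was also called when 4 mg/L replicate 3 was left out (edgeR adjusted p = 0.0472).

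At 4 mg/L the skin and muscle marker lists had medians below 0 with 0 called, and the liver, gut, red cell and proliferating-cell lists had medians above 0. An unadjusted p under 0.05 was found for 3 of 5 skin, 4 of 8 muscle, 5 of 8 liver and 2 of 6 gut markers. Of all tested genes 12.4% had such a p at 4 mg/L and 0.281% were called. The exocrine pancreas, neuron, photoreceptor and lens lists had 0 called and 0 with an unadjusted p under 0.05. Their medians were 0.66 for exocrine pancreas, 0.16 for neurons, -0.16 for photoreceptors and -0.04 for lens. For the 5 skin markers the median log2 difference was -0.82, and their summed level ran from 47775 to 60653 CPM in control and from 32818 to 44722 at 4 mg/L. The 8 skeletal muscle markers had a median of -0.59, with 49274 to 64903 CPM in control and 38770 to 45704 at 4 mg/L. Of the 8 liver markers 1, f2, the prothrombin gene, rose by 1.21 log2 units (edgeR adjusted p = 0.0112), and the list's median was 0.80. Of the 6 gut markers 1, the apolipoprotein gene apoa1a, rose by 1.72 (edgeR adjusted p = 0.0200), and the list's median was 0.36. The summed level of the list ran from 1679 to 1905 CPM in control and from 3151 to 4193 at 4 mg/L. Much of that difference was apoa1a itself, with a TMM-scaled mean of 700 CPM in control and 2310 at 4 mg/L. The red cell list had 0 of 5 called and 5 with an unadjusted p under 0.05, with a median of 0.76, and the proliferating-cell list had 0 of 11 called and 6 with an unadjusted p under 0.05, with a median of 0.67. No marker found in the files was at 0 in these lists, and the part of tissue make-up in the lincRNA values was not tested.

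Some lincRNAs act on the genes beside them, so the neighbours in RefSeq's gene order were examined for the 14 members that RefSeq lists as noncoding. They had 30 neighbouring or overlapping genes, of which 22 were tested. At 4 mg/L 0 of the 22 were called, beside 0.281% of all tested genes, and 4 were called among replicate numbers, beside 15.1%, so neither count stands apart from the table as a whole. The most similar values were in si:dkey-7c18.24, which follows si:ch211-213i16.3 in that order. It had 6706, 8002 and 19707 counts in control and 2802, 1853 and 6307 at 4 mg/L, a log2 fold change of -2.08 (edgeR adjusted p = 0.270), beside -2.34 for the lincRNA. Between numbers 3 and 1 its log2 difference was 1.52 (adjusted p = 0.00307), beside 1.32. The 2 genes next to the cyrano gene, oip5 and tmem39b, had log2 fold changes of 0.11 and -0.02 at 4 mg/L.

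The 3 members that share a symbol with a protein-coding row were set beside it. For itfg1 the log2 fold change at 4 mg/L was -0.11 in the lincRNA row and -0.04 in the protein-coding row, and for cab39, a scaffold of a kinase complex that includes Lkb1, it was -0.02 and -0.05, with both rows uncalled. At 1 mg/L the cab39 rows had 0.01 and -0.11. The protein-coding mhc1zaa row had between 4 and 13 counts and was not tested, while the lincRNA row had between 506 and 1384.

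Proteins that make, bind or degrade noncoding RNAs showed no call at any dose. Of all tested genes only 0.281% were called at 4 mg/L, 0.067% at 1 mg/L and 0% at 0.1 mg/L. In lists this small a count of 0 therefore does not set these proteins apart. Of 10 snoRNP core proteins, which take part in chemical modification of RNA, 0 were called and the median log2 fold change at 4 mg/L was -0.12. Of 9 tested nonsense-mediated decay factors, which clear transcripts with early stop codons, 0 were called (median -0.07), with smg6 nearest, at -0.32 (SE 0.114, edgeR adjusted p = 0.271). Among 21 tested rows for nuclear speckle and paraspeckle proteins, bodies of the nucleus of which the speckles hold malat1 in mammals, 0 were called (median 0.10). For Polycomb repressive complex 2, the histone methyltransferase that several lincRNAs bind, 0 of 9 were called (median -0.04), with the catalytic subunit ezh2 at 0.55 (SE 0.169, adjusted p = 0.216). For microRNA processing 0 of 7 were called (median 0.06). In the order given, 1, 1, 3, 2 and 1 rows of these lists had an unadjusted p under 0.05 at 4 mg/L, beside 12.4% of all tested genes. Among replicate numbers, where 8.11% of all tested genes were called higher and 6.98% lower in number 3, 3 of the 21 speckle and paraspeckle rows were called higher and 7 lower, among them srsf5a, a splicing factor, at 0.62 (adjusted p = 0.00346) and the paraspeckle protein nono at -0.47 (adjusted p = 0.00697).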

How the data were processed

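The authors deposited whole-number counts per gene and library, not normalized, for 31540 genes in 12 libraries. Per the labels' protocols, the libraries were stranded, made from poly-A RNA (500 ng of total RNA, 15 PCR cycles) and sequenced as pairs of 76 base reads. Per the submitters' processing notes STAR 2.5.1b, CASAVA, DESeq2 1.10.1 and RSEM 1.2.28 were used, and the build named is GRCz10. The sources used here do not give the role of each tool, the annotation release, whether counting used strand or what was done with multiply mapping reads. The written design allowed for estimated counts; 0 values were not whole, so none was rounded.

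Counts were tested with edgeR 4.0.16 (quasi-likelihood F test, TMM scaling, filterByExpr with a minimum count of 10, 2-sided, Benjamini-Hochberg over 22399 genes) in R 4.3.3, with 12 libraries in 1 fit and dose group as the only term, plus replicate number for the comparison of numbers. The method was tested on simulated counts drawn independently for each library. Those simulated for the 4 mg/L comparison held no effect of the replicate number, unlike these data, so they do not bear on that effect. SE is the absolute log2 fold change divided by the square root of F. CPM values are TMM-scaled. Members are named in the text if called (up to 8 per comparison), among the 3 smallest p of a comparison, the 10 highest means, the 3 highest or lowest CVs, next to the threshold, or carrying a gene name; up to 4 genes per list are named by p, and neighbours, paired rows and other named exceptions were chosen after their values were seen. The members and lists were chosen with earlier results of these data known.

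All 9 same-numbered pairs of dose libraries deviated together (correlations from 0.23 to 0.51). Of control and dose, the pairs numbered 1 and 3 did (from 0.21 to 0.45) and the pairs numbered 2 did not (from -0.24 to 0.002). The numbers may therefore pair the doses alone, though the control and dose pairs numbered 2 all share a single library, control 2. The main dose comparisons left this pairing out, and no fit with the number was made on the dose libraries alone. The replicate block and the comparison of numbers were still fitted over all 12 libraries, controls included. Names and gene order came from RefSeq tables of assembly GRCz12tu, a build other than that of the counts, so no coordinates are given. The alternatives were DESeq2 1.42.0, limma-voom (limma 3.58.1), other scalings and count filters, a replicate block, other member thresholds and each library left out; a fit of libraries numbered 1 and 2 only was chosen after seeing the data.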

Additional observations from a re-analysis of the deposited data

How the results depend on the processing

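Counts of members called moved as follows. At 4 mg/L the count, 0 in the report, was 1 with DESeq2, 6 with the replicate block, 1 with the mean rule of 100 counts, and 0 to 1 without one library. At 1 mg/L it was 2 with the block. For any difference among the 4 groups it was 1 with DESeq2 and 3 with the block. For the trend it was 2 with DESeq2, 6 with the block, 1 with the mean rule, and 0 to 1 without one library. Same-numbered control and dose libraries did not all deviate together, so the block changed calls in a pairing that is not established. The comparison among replicate numbers used the same model of dose group and number. The blocked comparison of the 3 doses, from a fit that also held the controls, called 0 members. Among replicate numbers the count, 19 in the report, ran from 9 to 24 without one library, was 0 with numbers 1 and 2 only, 7 at an adjusted p under 0.01 and 10 with at least 200 counts in every library. No median, and no log2 value of the genes with the smallest p, changed direction; among fold changes printed at 4 mg/L, those near 0 did, with ranges of -0.21 to 0.28 for si:ch211-132d3.4, -0.15 to 0.09 for cab39 and -0.27 to 0.03 for si:dkey-71p21.9. Of the other values for named lincRNAs and medians, 593 counted as unchanged. For a named lincRNA this meant the same direction, where the test had one, and the same status as called or uncalled, whatever the size. For a median it meant a shift smaller than its spread between libraries. A call was gained by 15 values and lost by 27, mostly of si:ch211-198i6.4. The other 2 moved: without control 1 the median was -0.28 at 4 mg/L and -0.25 at 1 mg/L. The count over all tested genes moved more, at 4 mg/L from 63 to 487 with DESeq2 and 1094 with the block (14 to 106 without one library), at 1 mg/L from 15 to 278 and 299, at 0.1 mg/L from 0 to 32 and 2, among 4 groups from 14 to 380 and 310, for the trend from 78 to 546 and 1248, and among 3 doses from 1 to 73 and 15. Among replicate numbers it ran from 1427 to 5533 without one library, beside 3380. The cause was not tested. With 3 libraries a group, log2 shifts near the median standard error of 0.209 were not detectable. Larger shifts went uncalled as well. At 4 mg/L the members ran from -2.34 to 0.53, with a lowest edgeR adjusted p of 0.139.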
